A study of Mus musculus with 2 samples.

Results

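The microRNA genes Mir6896 to Mir7094 form a run of late-numbered mouse microRNAs, nearly all of which lie in introns of protein-coding genes. They were chosen by name alone: every row of the count tables whose Ensembl identifier carries a symbol from Mir6896 to Mir7094 in GENCODE M21, letter or dash suffixes included. The rule found 178 genes among the 1973 listed. A further 23 genes of this name range in GENCODE M21 are not among the listed genes, so they have no counts here. The counts come from small RNA libraries of whole hindbrain, taken at embryonic day 16.5 from healthy B6NCrl mouse embryos of both sexes. There is 1 group, for which no treatment is named, with 2 biological replicates from separate tissue samples. Replicate 2 pooled 37 embryos, and the size of the replicate 1 pool is not given in the sources used here. The tissue holds many cell types, and fewer cells of a type and less RNA per cell cannot be told apart. Replicate 1 held 5097205 sense counts and replicate 2 held 4460836.

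A canonical microRNA is cut from its primary transcript by the nuclear enzyme Drosha and then by Dicer in the cytoplasm. A mirtron takes another route: the hairpin is a short intron, the spliceosome sets both of its ends, and after debranching it goes to Dicer without Drosha. In a tailed mirtron the splice site sets only one end of the hairpin, and the extra intron sequence on the other side must be trimmed away. Mirtrons are known to be numerous in mammals, young in evolution and mostly weakly expressed.

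The sequences of 3 hairpins show the forms found here. Mir6944 is a whole intron of Dbn1, Mir7083 sits against the acceptor of a long Dock6 intron, and Mir6977 sits against the donor of a short Ptprs intron. Capitals mark the bases of the hairpin that are also the first 2 or last 2 bases of the intron.
Mir6944 hairpin, chr13:55477681-55477776, minus strand: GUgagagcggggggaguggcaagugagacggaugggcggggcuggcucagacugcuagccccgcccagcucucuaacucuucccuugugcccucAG
Mir7083 hairpin, chr9:21809941-21810000, minus strand: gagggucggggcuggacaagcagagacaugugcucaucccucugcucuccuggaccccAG
Mir6977 hairpin, chr17:56418846-56418909, minus strand: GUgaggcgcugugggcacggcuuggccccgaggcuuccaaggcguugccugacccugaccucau

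Mature sequences are shown for the 8 genes that had at least 10 counts in both libraries and a mature sequence in the RefSeq table, because these are the ones the levels turn on. All are from RefSeq on GRCm38.p6, written from the 5′ end, and capitals mark the seed (bases 2 to 8), the stretch that pairs with target messages. The counts are per hairpin, so it is not known which arm the reads came from.
mmu-miR-6944-5p: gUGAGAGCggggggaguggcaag
mmu-miR-6944-3p: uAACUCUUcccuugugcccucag
mmu-miR-6958-5p: gUGGGAGAagaggcugcugugg
mmu-miR-6958-3p: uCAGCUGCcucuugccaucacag
mmu-miR-7083-5p: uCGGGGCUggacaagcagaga
mmu-miR-7083-3p: uCUGCUCUccuggaccccag
mmu-miR-6928-5p: aGGGGAUUugcauggacugcacu
mmu-miR-6928-3p: aAGCUGUUccuguacucuccag
mmu-miR-6897-5p: uGGGGGCAgugucacacgcuguu
mmu-miR-6897-3p: cGGUCUGUguucuucccccag
mmu-miR-6934-5p: uUGGUGGAgacagcaagggugg
mmu-miR-6934-3p: aCCUCUGCuccugccccaccag
mmu-miR-6977-5p: gUGAGGCGcugugggcacggcuugg
mmu-miR-6977-3p: aAGGCGUUgccugacccugacc
mmu-miR-7066-5p: uGGGUUGGgaaaugaguagagg
mmu-miR-7066-3p: uCUACCCAuugccugccucccag
The 5p sequences of miR-6944, miR-6958 and miR-6977 open with the intron's own first bases, and every 3p sequence shown except that of miR-6977 ends in the ag of a splice acceptor.

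The splice acceptor was the shared landmark of these hairpins in the annotation. The positions come from the annotation alone, and how its entries were first chosen was not examined. Of the 178 hairpins, 151 (84.8%) ended within 5 nt of a splice acceptor with the donor farther away, the arrangement of a tailed mirtron. Another 15 (8.43%) spanned an intron from end to end, and these are called mirtron-like here by position only. Together these classes held 166 hairpins (93.3%), and in 165 of them the last base of the hairpin was the last base of the intron. Among the 1716 other listed genes with an annotation, 35 (2.04%) ended at an acceptor. A further 4 members began at a splice donor, 1 (Mir7036b, in Add1) lay elsewhere in an intron and 7 overlapped an exon. Of these 7, 6 end within 10 nt of an acceptor. None of the 178 was intergenic, against 831 of the other annotated genes.

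**Figure D1:**
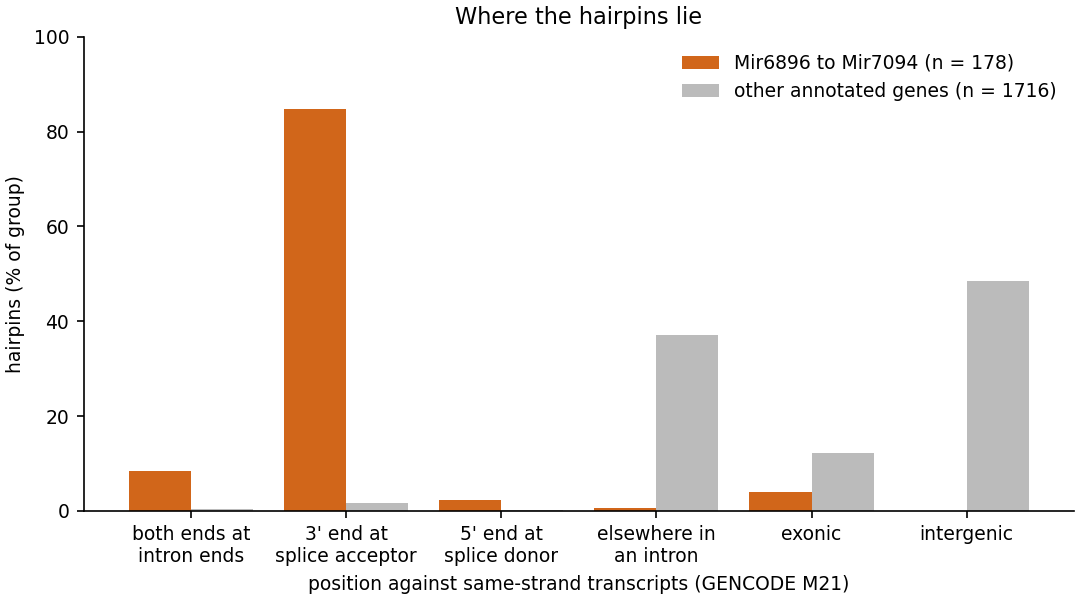
Share of hairpins (% of group, vertical axis) in each position class against same-strand GENCODE M21 transcripts, for the 178 genes Mir6896 to Mir7094 and the 1716 other annotated listed genes. The splice acceptor class holds 84.8% of the first group, while the others are mostly intergenic or elsewhere in an intron.

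The introns were of very different sizes. The mirtron-like members filled introns of 67 to 137 nt (median 83 nt). The acceptor-end members lay in introns of 77 to 36269 nt (median 488 nt), and the stretch from donor to hairpin ran from 7 to 36205 nt (median 421 nt). Only 14 of the 171 members placed in an intron were in the first intron and 19 were in the last. The hosts were 174 different genes, and 177 members had a protein-coding host. The exception was Mir7094-2, in the immunoglobulin segment Ighv1-5. Only 4 hosts carried 2 members each: Skiv2l (Mir6970 and Mir6971), Cmip (Mir7077 and Mir7078), Srebf1 (Mir6921 and Mir6922) and Arap3 (Mir6980 and Mir6981). In 39 cases an exon of any same-strand transcript, the host's own included, overlapped the hairpin. The 7 exonic members are among these.

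RefSeq held a hairpin for 161 of the 178 members (90.4%), each at the same coordinates as in GENCODE M21. Hairpins were short, with a median of 66 nt against 84 nt for the 699 hairpins matched among the 873 other listed genes with a Mir symbol (80.1%). They were richer in G and C (median 57.7% against 50.6%). Their predicted folding energy was weaker in total (median -26.9 against -35.5 kcal/mol) and similar per nucleotide (-0.40 against -0.42 kcal/mol). In 120 of 155 members with a 5p sequence the annotated hairpin opens exactly 5 nt before that sequence.

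The arms had opposite base contents. The 3p sequences were pyrimidine-rich, with a median of 71.4% C and U over 153 sequences, and 143 of them (93.5%) reached 60%. A run of pyrimidines before the acceptor is a general feature of introns. The 3p sequence ended in AG in 119 of 153 cases (77.8%), and in 113 its last base was the last base of the intron. The 5p sequences were rich in G, with a median of 45.5% over 155 sequences, and 74 of them (47.7%) began with U. In 14 members the 5p sequence began at the first base of the intron, and 13 of these opened with GU. Among the other Mir genes, 430 3p sequences had a median of 54.4% pyrimidine and 10.9% ended in AG, and 426 5p sequences had a median of 27.3% G. These cover only 49.3% and 48.8% of the 873 other genes, so a comparison with all of them is void and the values describe those sequences alone.

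**Figure D2:**
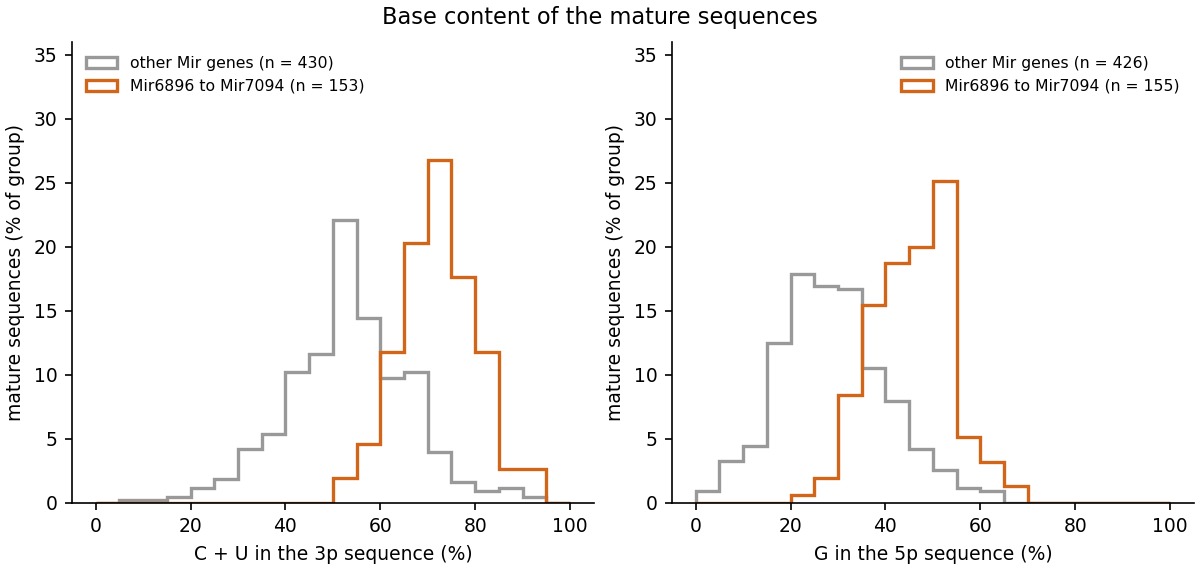
Histograms of C + U in 3p sequences (left, %) and G in 5p sequences (right, %) as a share of each group's mature sequences (vertical axis, %), for Mir6896 to Mir7094 and other Mir genes with a sequence of that arm. The first group is shifted to higher values in both, with medians of 71.4% and 45.5%.

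Most of these microRNAs had a few counts in hindbrain, and few had more. Detection was set at 10 or more sense counts in each library. This held for 12 of the 178 members (6.74%), against 19.5% of all listed genes and 42.2% of the other genes with a Mir symbol. Yet 120 members (67.4%) had at least 1 sense count in replicate 1 and 111 (62.4%) in replicate 2. Over all listed genes the shares were 34.5% and 33.8%. A count in both libraries was found for 30.9% of all listed genes. It was found for 98 members (55.1%), a share close to the 55.4% of the other Mir genes. The levels were far apart: of genes with a count in both, 12.2% of members and 76.0% of other Mir genes were detected. Another 35 members had a count in exactly 1 library, and 45 (25.3%) had none in either. For those 45 the limit that a count of 0 allows (3 counts, counting error only) was 0.589 CPM in the deeper library and 0.673 CPM in the other.

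CPM is the count per 1000000 sense counts of a library. It is not divided by length, since the libraries were limited to RNA under 30 nt and a read comes from 1 small RNA. No molecular identifiers are named, so reads are not a count of molecules. Over all 178 members the median level was 0.336 CPM, against 0.743 CPM for the other Mir genes and 0 over all listed genes. Among genes with a count in both libraries the medians were 0.806 CPM for members and 60.8 CPM for other Mir genes. Only 1 member exceeded 10 CPM, and none exceeded 100 CPM, a level reached by 216 of the other listed genes. Summed counts were 1 to 9 for 94 members, 10 to 19 for 25, 20 to 99 for 13 and above that for Mir6944 alone.

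**Figure D3:**
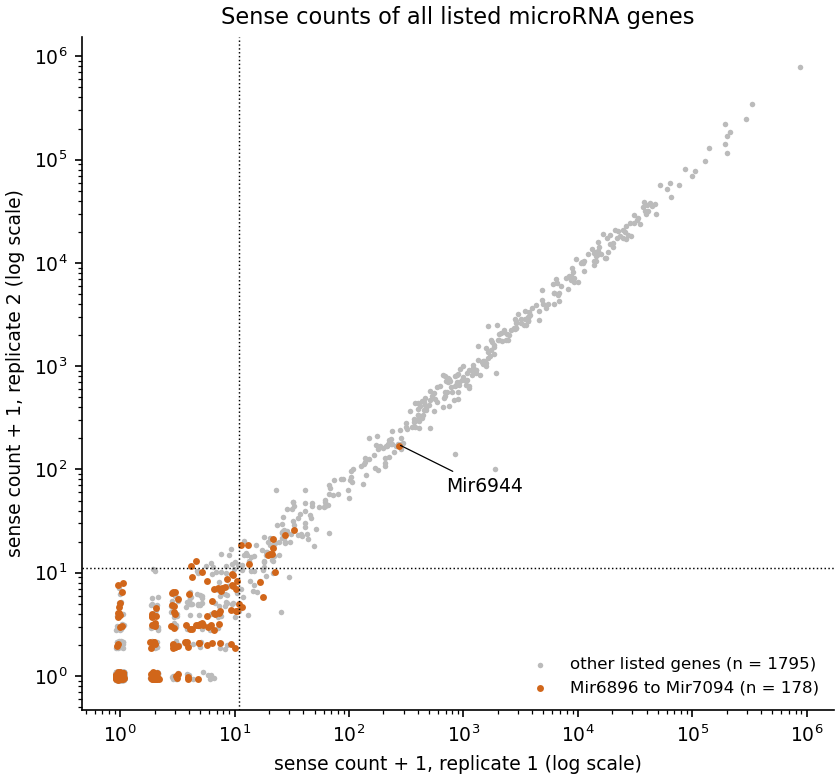
Sense count plus 1 in replicate 1 (horizontal, log scale) and replicate 2 (vertical, log scale) for every listed gene, with points slightly jittered and dotted lines at 10 counts. The 178 genes Mir6896 to Mir7094 crowd the lower left corner, and 12 of them pass both lines, Mir6944 farthest.

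All 178 members together took 895 counts in replicate 1 and 696 in replicate 2. That was 0.0176% of sense counts (exact binomial 95% interval 0.0164% to 0.0187%) and 0.0156% (0.0145% to 0.0168%), a mean of 0.0166% ± 0.00138 (SD, n = 2). The intervals overlap. The opposite strand at the members' positions held 0 and 2 counts, both at Mir6966.

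The counts by microRNA number place these genes among their neighbours. Of the 465 genes Mir1 to Mir999, 62.2% were detected, and of the 78 genes Mir2000 to Mir3999, 39.7%. The share was 26.9% for Mir1000 to Mir1999, 12.5% for Mir4000 to Mir5999, 4% for Mir6000 to Mir6895 and 8.42% above Mir7094. The range Mir6896 to Mir7094 thus had a detected share as low as the other late numbers. Its share with at least 1 count in both libraries, 55.1%, lay between the 50% of Mir4000 to Mir5999 and the 62.8% of Mir2000 to Mir3999. That share was 10% for the 100 genes Mir6000 to Mir6895, 36.8% for the 95 genes above Mir7094, 44.9% for Mir1000 to Mir1999 and 69.2% for Mir1 to Mir999. The detected members had a median of 3.49 CPM, against 7.75 CPM for Mir4000 to Mir5999, 9.33 CPM for Mir2000 to Mir3999, 9.35 CPM above Mir7094, 17.4 CPM for Mir1000 to Mir1999 and 23.1 CPM for the 4 detected genes of Mir6000 to Mir6895. These shares are descriptions of 2 libraries, without a test.

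**Figure D4:**
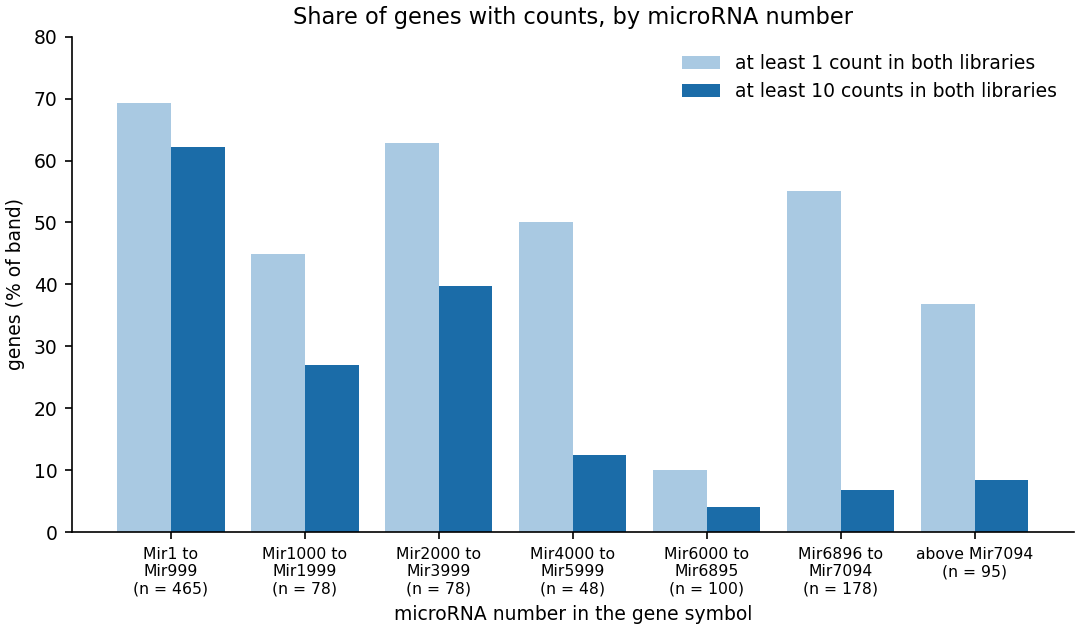
Share of genes (% of each band, vertical axis) with at least 1 or at least 10 sense counts in both libraries, by microRNA number. In the band Mir6896 to Mir7094 the gap between the bars is wide, 55.1% against 6.74%.

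Mir6944 had by far the highest level. It is the whole intron 9 of Dbn1, which encodes drebrin, an actin-binding protein of developing neurons and dendritic spines. It had 261 counts in replicate 1 and 177 in replicate 2, or 51.2 and 39.7 CPM, a mean of 45.4 ± 8.15 CPM (SD, n = 2). It alone held 27.3% ± 2.64 of all member counts (SD, n = 2) and ranked at place 252 of the 1973 genes. Its nearest neighbours in level over all listed genes were Mir205 at 47.2 ± 12.9 CPM and Mir152 at 44.4 ± 4.40 CPM (SD, n = 2), neither of which lay beyond its spread.

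The other 11 detected members are described in an order set by what their hosts are known to do. The order is for reading only: no list of hosts was fixed, and members in hosts of similar roles were also found near 0, such as Mir7030 in Rab35 with 1 and 0 counts and Mir7012 in Dennd4b with 1 and 0. Mir6928, at the acceptor of intron 8 of Atp6v0a1 (chr11:101030340-101030409), a subunit of the proton pump that acidifies synaptic and other vesicles, had 20 and 19 counts, or 3.92 and 4.26 CPM. Mir6977, at the donor of intron 24 of Ptprs, a receptor tyrosine phosphatase of axons and synapses, had 13 and 17 counts, or 2.55 and 3.81 CPM. Mir7066, at the acceptor of intron 9 of Ncan (chr8:70102524-70102586), which encodes the brain proteoglycan neurocan, had 13 and 11 counts, or 2.55 and 2.47 CPM. For each of these 3 the CPM of either library lay within the exact binomial interval of the other.

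Next in level after Mir6944 were Mir6958 and Mir7083. Mir6958, the whole intron 17 of Dennd6b (chr15:89185465-89185537), a gene of the DENN domain family of Rab exchange factors, had 30 and 24 counts, or 5.89 and 5.38 CPM. Mir7083, at the acceptor of intron 38 of Dock6, an exchange factor for Rac and Cdc42, had 28 and 24 counts, or 5.49 and 5.38 CPM. Mir6934, at the acceptor of intron 8 of Tbc1d16 (chr11:119154076-119154137), a Rab GTPase-activating protein, had 18 and 14 counts, or 3.53 and 3.14 CPM. Mir6979, in the formin gene Diaph1, had 11 and 17 counts, or 2.16 and 3.81 CPM. Mir6979 was lower in replicate 1, with overlapping exact binomial intervals (1.08 to 3.86 and 2.22 to 6.10 CPM), while the other 3 were slightly lower in replicate 2. Nearest in level to Mir6958 were Mir196a-2 and Mir1947, and to Mir7083 Mir19b-1 and Mir215. Mir3058 and Mir297a-2 stood next to Mir6928 in level, and Mir1982 and Mir7226 next to Mir6971.

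Both libraries also held Mir6971, Mir6897, Mir6900 and Mir6951 above the detection limit. Mir6971, at the acceptor of the 135-nt intron 19 of Skiv2l, an RNA helicase of the cytoplasmic exosome pathway, had 19 and 16 counts, or 3.73 and 3.59 CPM. Its companion Mir6970, a mirtron-like hairpin in intron 14 of the same gene, had only 2 and 1 counts. Mir6897, in the last intron of Uggt1 (chr1:36144252-36144313), the folding sensor of glycoproteins, had 20 and 15 counts, or 3.92 and 3.36 CPM. Mir6900, in Ndufa10 of respiratory complex I, had 18 and 13 counts, or 3.53 and 2.91 CPM. Mir6951, in the last intron of Azin1, which encodes an antizyme inhibitor of polyamine metabolism, had 21 and 10 counts, or 4.12 and 2.24 CPM. Mir6951 was the detected member with the widest spread between libraries relative to its mean, 3.18 ± 1.33 CPM (SD, n = 2). The host messages were not measured in these libraries.

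**Figure D5:**
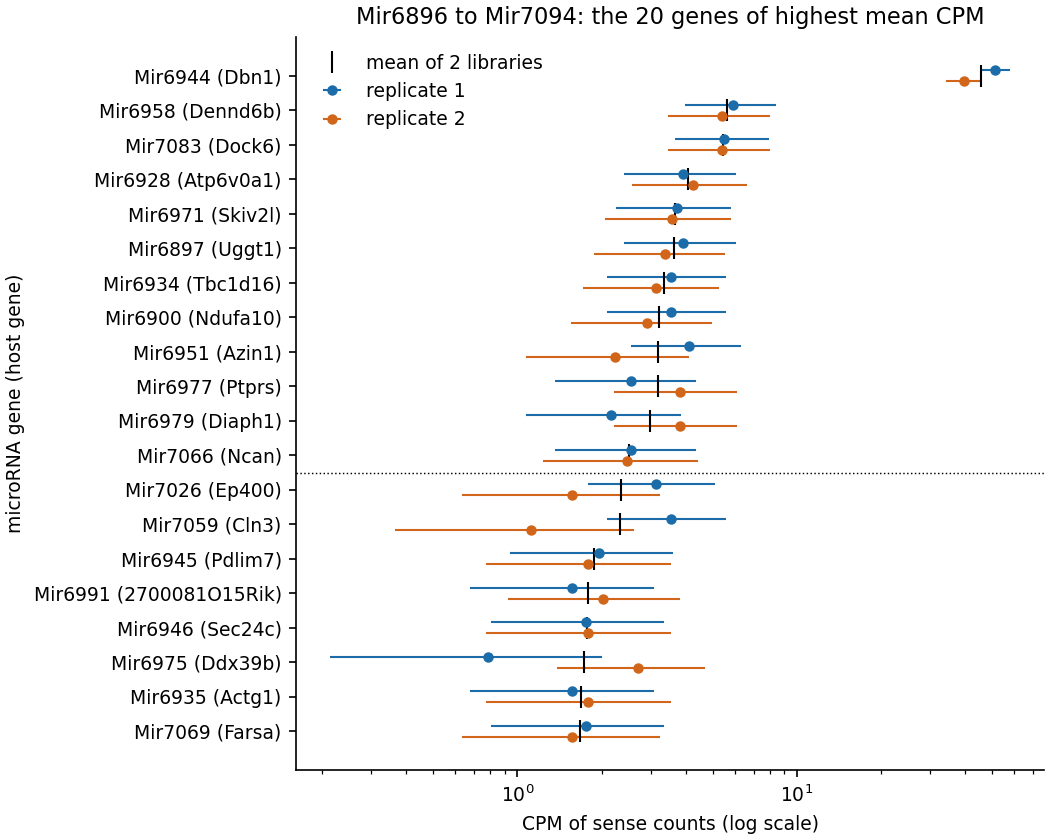
CPM of sense counts (horizontal, log scale) for the 20 genes of highest mean level in the range, each with its host gene, in replicate 1 and replicate 2 with exact binomial 95% intervals and the mean of both libraries as a tick. The 12 genes above the dotted line were detected, and the intervals of Mir6944 lie apart from all others.

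Below Mir6944 the order of the levels was mostly unresolved. Mir6944 exceeded each of the other 11 detected members in both libraries, by mean log2 ratios from 3.0 (Mir6958) to 4.17 (Mir7066), all larger than 2 SD of the libraries' ratios and with counting intervals that did not overlap in either library. Among the other 11 members, the intervals overlapped in both libraries for 54 of 55 pairs, the exception being Mir6958 and Mir6979. By the spread of the libraries, 19 of the 55 pairs differed by more than 2 SD, such as Mir6958 over Mir7066 (log2 ratio 1.17 ± 0.06, SD, n = 2). An SD from 2 libraries is itself imprecise, and 2 ratios that happen to lie close together can pass this limit. Of the 11 neighbouring pairs in the order, 3 differed by more than 2 SD: Mir6944 over Mir6958, Mir7083 over Mir6928 (log2 ratio 0.41 ± 0.10, SD, n = 2) and Mir6897 over Mir6934 (0.13 ± 0.04), the last 2 with overlapping counting intervals. The other 8 neighbouring pairs did not differ beyond that spread. Just inside the detection limit were Mir6951, with a lower count of 10, and Mir6979 and Mir7066, with 11. Just outside it were Mir6945 in Pdlim7 (10 and 8 counts), Mir6946 in Sec24c (9 and 8), Mir6991 (8 and 9) and Mir6935 in Actg1 (8 and 8). Mir7026 in Ep400, with 16 and 7 counts, and Mir7059 in Cln3, with 18 and 5, had the highest mean levels among the genes not detected.

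Detected genes came from all 3 intron forms. Of the 15 mirtron-like members 2 were detected (Mir6944 and Mir6958), of the 151 acceptor-end members 9 and of the 4 donor-end members 1 (Mir6977). A count in both libraries was found for 10 of 15, 81 of 151 and 2 of 4. Mirtron-like members held 36.3% and 31.8% of the member counts in replicates 1 and 2, most of it Mir6944, and acceptor-end members 60.1% and 62.6%. Their median levels were 0.308 and 0.336 CPM. Within the acceptor-end class the shares were close for short and long introns: a count in both was found for 22 of 40 members (55.0%) in introns of up to 150 nt and 59 of 111 (53.2%) in longer ones, with 1 and 8 detected.

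The other mirtron-like members had few counts. Mir7068, the whole intron 4 of Cherp, had 10 and 6 counts, and Mir7070, the whole intron 2 of Fbxw9, had 9 and 3. Mir7091 in Dnase1l1 had 4 and 2, and Mir7080 in Cpne7 had 2 and 3. None of these reached 2 CPM on average. Mir7082, Mir7058, Mir7060, Mir7018 and Mir6923 had 2 to 4 counts in both libraries together. Mir6974 in Lta, the gene of the lymphocyte cytokine lymphotoxin alpha, Mir7088 in Mst1 and Mir6981 in Arap3 had 0 counts in both.

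Seeds were nearly all different. The 308 mature sequences of members carried 284 distinct seeds, and 230 of the sequences shared theirs with no other mature sequence in the RefSeq table. Only 20 seeds occurred in at least 2 member sequences, and none in more than 3. The 16 sequences printed above carry 16 distinct seeds, and 13 of these occur in no other microRNA of the table. The exceptions are miR-6958-5p, with the seed of miR-30c-1-3p and miR-30c-2-3p, miR-7083-5p, with that of miR-12197-3p, and miR-6897-3p, with that of miR-5106.

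One of these genes was called different between the 2 libraries. Each gene with a summed count of at least 20 was compared between the libraries by an exact two-sided binomial test against totals scaled with edgeR's TMM method, adjusted by Benjamini-Hochberg over all 401 genes tested. The test compares the libraries and allows for counting noise only. Of all tested genes 46.4% were called, 24.4% higher in replicate 1 and 21.9% higher in replicate 2. Of the 14 members tested 1 was called, Mir7059, higher in replicate 1 by a log2 ratio of replicate 2 over 1 of -1.59 (95% interval -3.38 to -0.11, exact binomial adjusted p = 0.0473). The call rests on 18 and 5 counts. Of the 14 members, 13 had summed counts of 20 to 99, where only large differences can be called. Mir10a, with 321144 and 258079 counts, was called at a log2 ratio of -0.06. The share of members called therefore cannot be set against that of all genes, and does not show closer agreement between libraries. Mir6944 did not pass, at -0.30 (-0.59 to -0.02, exact binomial adjusted p = 0.0652). The intervals of the other 12 tested members all included 0. The median log2 ratio of the 14 was -0.09, against -0.00287 over all genes tested, with 8 members higher in replicate 1 and 6 in replicate 2. An exact test in edgeR, given a biological coefficient of variation (BCV) of 0.1, called 0 members, with 1 at an unadjusted p under 0.05, where 1.75% of all genes were called. At the BCV of 16.3% estimated from the libraries it also called 0, with 0 at an unadjusted p under 0.05, against 0.748% of all genes. That BCV was taken from the difference between the same 2 libraries that it was then used to test. Few calls follow from this setting, so it cannot show whether members agree between libraries.

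Markers of the labelled tissue were present, though not all of the neural ones were detected. Mir10a and Mir10b lie in Hox clusters and mark hindbrain and more posterior tissue. They summed to 100993 and 85868 CPM in replicates 1 and 2. The 8 listed neural markers, 5 of them detected, summed to 13391 and 12047 CPM. Most of that was Mir137 (46673 and 32115 counts), Mir128-1 (12687 and 12683) and Mir128-2 (6385 and 6838). The rest of the neural list were copies of Mir9 and Mir124a, some of them not detected. Multimapping reads are not in the gene counts, so counts at these copies need not show the full level of their microRNAs. Mir126a of endothelium stood at 27475 and 29178 CPM, erythroid markers at 216 and 206, leukocyte markers at 401 and 366 and the liver marker Mir122 at 41.0 and 41.9 CPM. Skeletal muscle markers stood at 375 and 24.9 CPM, with 1 of the 5 listed detected and Mir133a-1, Mir133a-2 and Mir1a-1 at 0. Most of that was Mir206, with 1884 and 108 counts, a log2 ratio of replicate 2 over 1 of -3.87. The limit given for copies of Mir9 holds for copies of Mir133a and Mir1a too. The part of these other cell types in the members' counts was not tested. Multimapping reads, 34.5% and 35.1% of all reads, were tallied apart from the genes. Among the 161 members with a RefSeq hairpin, only Mir7094-2 shares a whole mature sequence with another gene of the RefSeq table. It had 0 counts in both libraries. For the members without a RefSeq hairpin, among them the detected Mir6971, Mir6900, Mir6951 and Mir6979, sharing could not be checked. Whether the reads are processed microRNAs or other short fragments of introns was not tested, since the tables give counts per hairpin only.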

How the data were processed

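The authors deposited raw counts of reads for each gene, made on mm10 with annotation M4, per the text files deposited with each sample. The aligner and the counter: not given in the sources used here. Column 3, the strand with the larger total, was the sense count. The 4 summary lines were left out of totals.

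Identifiers were matched without version to GENCODE M21 (GRCm38), which gave symbols, hosts and introns; 1894 of 1973 matched. Hairpin ends were placed against introns of same-strand transcripts with a tolerance of 5 nt. Sequences are from RefSeq (GRCm38.p6), and folding energies from RNAfold 2.7.2. The 2 libraries are 1 group, so conditions could not be compared. Intervals are 95% Clopper-Pearson and, like floors of 3 counts, cover counting error only, since no molecular identifiers are named. The library test was tested on simulated data.

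The text names all detected genes, called genes and level neighbours of the top 5. Mirtron-like, donor-end, shared-host and near-limit genes, and Mir7030 and Mir7012, were added after their values were seen. Members and lists were chosen with earlier results of these data known. Where a detected gene had no RefSeq sequence, the next in level was printed. R 4.3.3 ran edgeR 4.0.16 (TMM totals, exact test) and, for alternative totals, DESeq2 1.42.0; Python 3.11.15 ran scipy 1.17.1, pandas 2.3.3 and numpy 2.4.6, and matplotlib 3.10.9 drew the figures. Alternatives covered count minimum, totals, strand, tolerance and leaving out a library.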

Additional observations from a re-analysis of the deposited data

How the results depend on the processing

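The number of detected members depends on the count minimum: 98 at 1 count in both libraries, 27 at 5 and 3 at 20, against 12 at the minimum of 10. It was 12 with unstranded counts and 15 to 18 with 1 library left out. The members' share was 0.0201% with Mir99a left out of the total and 0.0156% to 0.0176% with 1 library left out. The median level was 0.224 to 0.294 CPM with 1 library left out, and 0.355 CPM with unstranded counts. The number of members called between the libraries was 2 with plain library totals (Mir7059 and Mir6944), 0 at a summed count of at least 10, where 6 of 39 tested had an unadjusted exact binomial p under 0.05 and the smallest adjusted p was 0.0541, 2 without a minimum (Mir7037 with 0 and 7 counts and Mir6909 with 0 and 6) and 0 by edgeR's exact test at either BCV. The cause was not tested, apart from the number of genes tested, which differs with the minimum. DESeq2 size factors and unstranded counts gave 1. The mirtron-like number was 14 to 18 over tolerances from 0 to 10 nt. With unstranded counts only the totals changed for the 12 detected members, which had no opposite-strand counts. The mean levels of Mir7083 and Mir7066, whose SDs were small (0.08 and 0.06 CPM), moved by more than 1 SD, to 5.31 and 2.45 CPM. Those of the other 10 detected members did not. Depth limits what can be detected: 10 counts are 1.96 and 2.24 CPM in replicates 1 and 2.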
